A study of Mus musculus with 3 samples.

Results

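Transcripts of the aryl hydrocarbon receptor pathway were read in naive CD4+ T cells in culture. The pathway was represented by 7 genes, chosen by their known roles, with earlier results of these arrays already known: the receptor gene Ahr, its partner gene Arnt, the feedback genes Ahrr and Tiparp, and the target genes Cyp1a1, Cyp1b1 and Nqo1. They were 7 of the 19935 genes that had a probe set annotated with exactly 1 gene symbol, and each had 1 such probe set. Naive CD4+ T cells, helper T lymphocytes that have not yet met antigen, came from wild-type C57BL/6 mice aged 8 weeks. One culture received medium with vehicle, another IL-21, and another IL-6 together with TGFb1, a cytokine pair widely used to obtain Th17 cells. The last is written IL-6/TGFb1 below. No allele or agent beyond these is given in the labels, which state neither dose, time in culture, T cell receptor stimulation nor the number of animals behind a culture. Each culture was measured on 1 array, so every difference below compares 2 arrays, has no replicate error and carries no test. The values are probe set intensities on a linear scale, given as the authors deposited them.

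The aryl hydrocarbon receptor is a transcription factor that is switched on by small molecules, among them pollutants, dietary indoles and products of tryptophan breakdown. Without ligand it rests in the cytoplasm in a complex with the chaperone HSP90 and its co-chaperones. With ligand it enters the nucleus, pairs with ARNT and binds short DNA sites with the core GCGTG, from which it induces detoxifying enzymes and also its own inhibitors. Among helper T cells the receptor is known for high expression in Th17 cells, where it supports production of IL-22.

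Array medians were between 182 and 191. A gene was compared if its highest intensity over the 3 arrays reached 187, the median of all values, which kept 11003 genes. Of the 7 pathway genes, Ahr, Arnt and Tiparp passed, and Ahrr, Cyp1a1, Cyp1b1 and Nqo1 stayed below 187 on every array. T cell markers of the cultures were read first, and they do not settle CD4+ identity. All 9 measured genes of the T cell marker list passed the filter, with Cd4 at 6858 in medium, 6765 under IL-21 and 6077 under IL-6/TGFb1, and Cd3e at 6294, 6434 and 6069 in the same order. Trat1, a T cell receptor adaptor gene, was the 1 marker of that list past 2-fold, at 2803, 1560 and 665. Cd8b1, a CD8 T cell marker, also passed the filter, at 810, 731 and 616, while Cd8a stayed below it, at 163, 145 and 155. Exactly equal values on pairs of arrays were frequent in the deposited table, from 16.4% to 21.6% of the 28815 probe sets, and such ties put differences at 0.

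Ahr, the receptor gene itself, had an intensity of 262 in medium, 941 under IL-21 and 1950 under IL-6/TGFb1. It was therefore lowest in medium, intermediate with IL-21 and highest with IL-6/TGFb1. All differences are in log2 units, computed on log2(intensity + 1). Ahr was 3.59-fold higher with IL-21 than with medium (log2 difference 1.84) and 7.43-fold higher with IL-6/TGFb1 (2.89). These comparisons share the medium array. In the comparison of the treated cultures, which leaves that array out, the Ahr value with IL-21 was 2.07-fold lower (log2 difference -1.05). Among the 11003 compared genes, the Ahr difference was the 9th highest with IL-21 and the 6th highest with IL-6/TGFb1, and it was the 20th lowest for IL-21 minus IL-6/TGFb1. IL-21 was set against a culture that differed from it both in the first cytokine and in the presence of TGFb1, and those effects cannot be told apart.

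**Figure D1:**
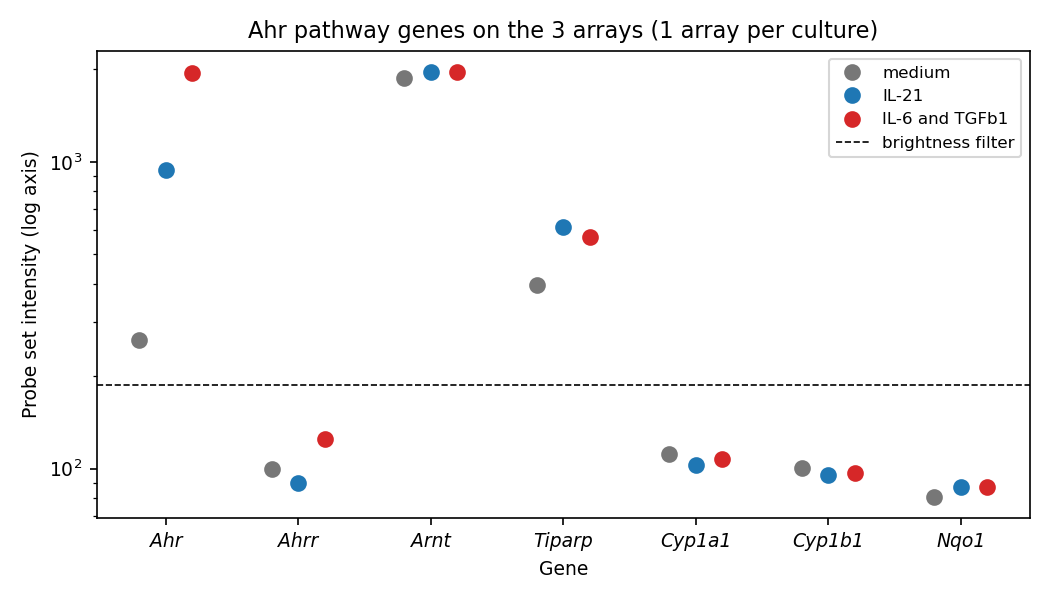
Probe set intensity (log axis) of the 7 pathway genes on the 3 arrays, 1 point per culture, with the brightness filter of 187 as a dashed line. Ahr spans 262 to 1950, Arnt stays between 1880 and 1962, Tiparp between 398 and 613, and the other genes lie below the line on all arrays.

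Arnt encodes the partner that the receptor needs to bind DNA. Its intensity was 1880 in medium and 1962 in both treated cultures, where the deposited values were equal to the last digit. The log2 difference from medium was 0.06 in each treated culture, near the middle of all compared genes, whose median was 0.04 with IL-21 and 0.02 with IL-6/TGFb1. Between the treated cultures the Arnt difference was 0, and it lay between -0.03 and 0.04 under the other settings tried. The partner was well above the filter in medium already and stayed within 2-fold in the comparisons in which Ahr was past it.

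Tiparp encodes a mono-ADP-ribosyltransferase, also called PARP7, that is induced by the receptor and modifies it to limit its activity. Its intensity was 398 in medium, 613 under IL-21 and 569 under IL-6/TGFb1. Both treated cultures were higher than medium and close to each other, an order that differs from that of Ahr. The log2 difference was 0.62 with IL-21 (1.54-fold) and 0.51 with IL-6/TGFb1 (1.43-fold), short of 2-fold in both. It was the 196th highest difference of 11003 with IL-21 and the 378th with IL-6/TGFb1. As a yardstick, 474 genes had 2 probe sets above the filter, and the gap between their differences had a 95th percentile of 0.41 in the first comparison and 0.37 in the second. Both Tiparp differences were larger than that, but such a gap reflects how well probe sets of the same arrays match and says nothing of the spread between cultures. For IL-21 minus IL-6/TGFb1 the Tiparp difference was 0.11, inside the corresponding gap of 0.35.

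Ahrr encodes the receptor's repressor, a related protein that competes for ARNT and for the same DNA sites. Its intensity was 99.6 in medium, 90.0 under IL-21 and 125 under IL-6/TGFb1. It was highest with IL-6/TGFb1, as Ahr was, but dim on all 3 arrays, and IL-21 lay below medium. The log2 differences were -0.14 with IL-21, 0.32 with IL-6/TGFb1 and -0.47 between the treated cultures. Among the 8932 genes below the filter, 95% of the differences lay between -0.24 and 0.17 with IL-6/TGFb1 and between -0.24 and 0.13 for IL-21 minus IL-6/TGFb1. Ahrr lay outside that band in both, and inside the band of -0.33 to 0.14 with IL-21. All 3 intensities were below the filter, so these differences are poorly measured.

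Cyp1a1 encodes the cytochrome P450 enzyme that is the standard readout of receptor activity. Its intensity was 112 in medium, 103 under IL-21 and 108 under IL-6/TGFb1. Cyp1b1, a related P450 gene, was at 100.1, 95.0 and 96.4 in the same order. Neither was above medium in a treated culture, and both stayed below the filter. Nqo1 encodes a quinone reductase that responds both to the receptor and to the antioxidant factor NRF2. Its intensity was 81.0 in medium and 86.8 in both treated cultures, again with equal deposited values. The differences of Cyp1a1, Cyp1b1 and Nqo1 lay between -0.11 and 0.10 in all 3 comparisons. At these intensities a low level cannot be told apart from background signal, so their absence is not shown.

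Counted together, 1 of the 3 compared pathway genes, Ahr, was at least 2-fold higher with IL-21, against 0.482% of all compared genes, and none was at least 2-fold lower, against 0.109%. The same counts with IL-6/TGFb1 were 1 of 3 higher, against 0.673%, and none lower, against 0.364%. Between the treated cultures 1 of 3, again Ahr, was at least 2-fold lower in the IL-21 culture, against 0.191%, and none was at least 2-fold higher, against 0.273%. The median difference of Ahr, Arnt and Tiparp was 0.62 with IL-21 and 0.51 with IL-6/TGFb1, and it was 0.00 between the treated cultures, where the median of all compared genes was also 0.00. With so few genes these medians are the values of Tiparp and Arnt.

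**Figure D2:**
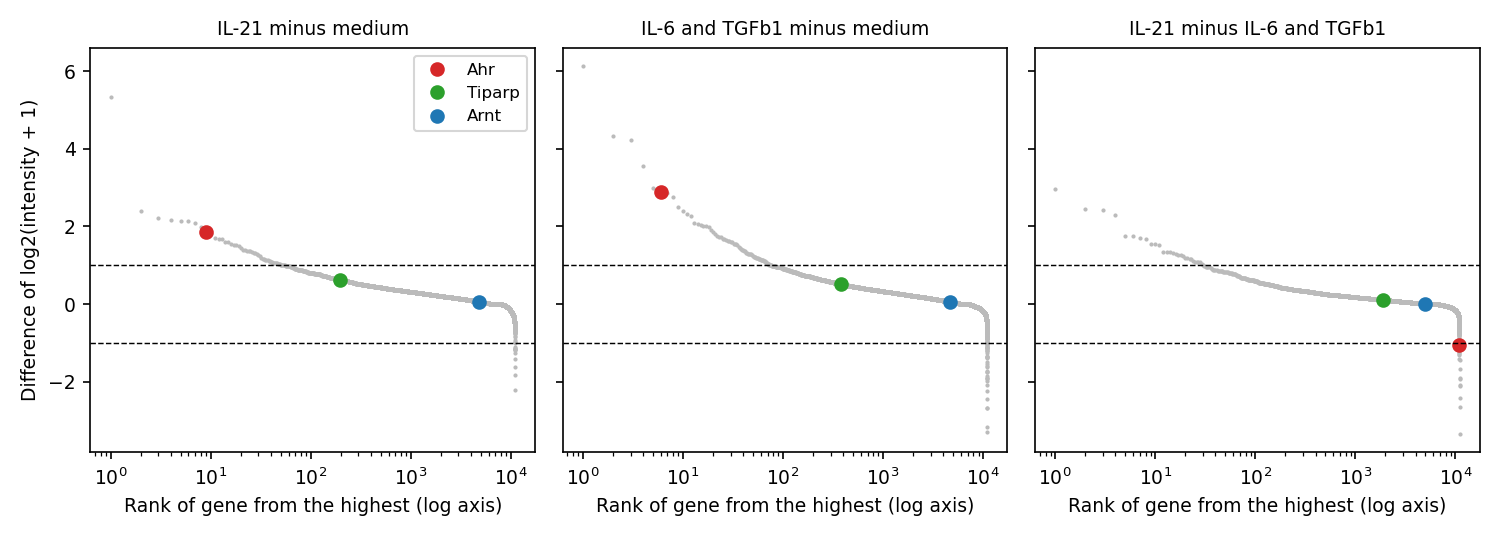
Difference of log2(intensity + 1) for each of the 11003 compared genes (grey), ordered from the highest (rank on a log axis), in the 3 comparisons, with dashed lines at 2-fold. Ahr is ranked 9th and 6th against medium and sits near the low end of IL-21 minus IL-6/TGFb1, while Tiparp and Arnt lie within 2-fold.

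Promoter sequences of 6 of the 7 pathway genes, Ahrr, Arnt, Tiparp, Cyp1a1, Cyp1b1 and Nqo1, were matched by symbol in a RefSeq table (build GRCm38.p6). The 250 bases before the start were searched on both strands for the receptor's core GCGTG and for the longer form TNGCGTG, which contains the core. The core was found for 5 of these 6 genes, all but Nqo1, and in 28.2% of all 32851 promoters in the table. The longer form was found for Ahrr alone and in 4.10% of all promoters. A match describes the letters and does not show binding. Sites outside the 250 bases were not searched, so a gene without a match here may still have one elsewhere. Tiparp, Ahrr and Cyp1a1 are printed because they are receptor targets with different readouts here: Tiparp above the filter and higher in both treated cultures, Ahrr and Cyp1a1 below the filter. Capitals mark the core on either strand, and all run 5′ to 3′ toward the start. Tiparp is on the plus strand at chr3:65528197-65528446, Ahrr on the minus strand at chr13:74292332-74292581, and Cyp1a1 on the plus strand at chr9:57697363-57697612.
Tiparp: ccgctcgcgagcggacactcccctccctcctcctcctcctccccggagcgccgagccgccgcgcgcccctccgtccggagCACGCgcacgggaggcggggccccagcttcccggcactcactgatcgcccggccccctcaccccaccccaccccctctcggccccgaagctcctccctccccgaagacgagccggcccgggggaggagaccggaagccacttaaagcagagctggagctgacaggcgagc
Ahrr: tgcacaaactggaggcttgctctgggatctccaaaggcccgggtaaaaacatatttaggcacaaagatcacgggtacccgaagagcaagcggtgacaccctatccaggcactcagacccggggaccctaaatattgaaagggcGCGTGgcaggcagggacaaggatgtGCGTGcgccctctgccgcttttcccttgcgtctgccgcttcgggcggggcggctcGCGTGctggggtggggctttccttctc
Cyp1a1: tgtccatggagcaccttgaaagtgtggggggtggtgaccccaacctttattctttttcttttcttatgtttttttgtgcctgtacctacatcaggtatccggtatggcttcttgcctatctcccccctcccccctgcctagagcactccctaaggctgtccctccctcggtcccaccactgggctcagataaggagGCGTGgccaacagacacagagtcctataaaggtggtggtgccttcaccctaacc
Tiparp and Cyp1a1 each held 1 core, 170 to 166 bases before the start on the opposite strand and 54 to 50 bases before it on the same strand. Ahrr held 3, and the one closest to the start was part of the longer form.

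The proteins that hold and handle the receptor form a list of 8 genes, of which 6 were analysed here. All 6 passed the filter and none reached 2-fold. Hsp90aa1, an HSP90 chaperone gene, was at 9536 in medium, 9536 under IL-21 and 9077 under IL-6/TGFb1. Ptges3, which encodes the co-chaperone p23, was at 7809, 7725 and 7585. The ubiquitin ligase genes Cul4b (1524, 1582 and 1461) and Stub1 (1131, 1175 and 1257), the ubiquitin-conjugating enzyme gene Ube2l3 (5573, 5637 and 5471) and the ligase adaptor gene Ddb1 (4881, 5020 and 5053) also stayed close to their medium values. Across the list the differences ran from -0.02 to 0.06 with IL-21 (median 0.03) and from -0.07 to 0.15 with IL-6/TGFb1 (median -0.03).

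Relatives of the receptor in the bHLH-PAS family and its coactivators formed a list of 22 genes, 21 measured and 15 compared. Epas1, which encodes the hypoxia factor HIF-2alpha, was the one past 2-fold. That is 1 of 15 higher with IL-21 than with medium, against 0.482% of all compared genes, and 1 of 15 higher with IL-21 than in the other treated culture, against 0.273%. Its intensity was 233 in medium, 494 under IL-21 and 198 under IL-6/TGFb1, so that IL-21 alone was high. The log2 difference was 1.08 from medium and 1.32 from IL-6/TGFb1, and the other settings gave 1.03 to 1.15 and 1.25 to 1.36. Arntl, which encodes the clock factor BMAL1, followed the order of Ahr at 274, 421 and 528, with differences of 0.62 and 0.94 from medium. The coactivator gene Ncoa1 (658, 878 and 1094) and Clock (458, 526 and 615), the partner of BMAL1, had the same order within 2-fold. The list median was 0.11 with IL-21 and 0.02 with IL-6/TGFb1, beside 0.04 and 0.02 for all compared genes.

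Further target genes of the receptor numbered 23, of which 17 were measured and 9 compared. None was past 2-fold in any comparison. Pold4, a DNA polymerase subunit gene, was at 616 in medium, 924 under IL-21 and 975 under IL-6/TGFb1, and the P450 gene Cyp2s1 was at 193, 256 and 299. Jun, an AP-1 factor gene, was at 629, 810 and 957. Xdh, which encodes xanthine dehydrogenase, ran the other way at 307, 269 and 203. The list median was 0.18 in each comparison with medium, with 6 of 9 genes above 0 with IL-21 and 7 of 9 with IL-6/TGFb1. Over all compared genes 6581 of 11003 and 6194 of 11003 were above 0.

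Genes linked to the receptor in T cells formed a list of 24, of which 20 were measured and 16 compared. With IL-21, 2 of 16 were at least 2-fold higher, against 0.482% of all compared genes, and with IL-6/TGFb1, 4 of 16, against 0.673%, while none was at least 2-fold lower in either. The list median was 0.24 and 0.39, with 12 of 16 and 13 of 16 genes above 0. Over all compared genes the median was 0.04 and 0.02, with 6581 and 6194 of 11003 above 0. Several genes passed the filter through the culture in which they were high, so these counts are a description. Il23r, an IL-23 receptor subunit gene, had the order of Ahr, at 77.9, 418 and 1596, and so did the cytokine gene Il21 at 43.0, 1780 and 3073, both from a medium value below the filter. Maf, a transcription factor gene of Th17 and follicular helper cells, was at 273, 296 and 1865, and the cytokine gene Il17f at 160, 185 and 1896. For these the IL-21 culture lay next to medium, unlike Ahr. Ccr6, a chemokine receptor gene of Th17 cells, was at 263, 183 and 446, and its IL-21 value was at least 2-fold below that of the other treated culture (-1.28), together with Il23r (-1.93), Maf (-2.65) and Il17f (-3.35). That made 4 of 16 genes lower, against 0.191% of all compared genes. The IL-21 intensities of Ccr6 and Il17f were themselves below 187, so the size of these differences is poorly measured. Some other genes of the list were higher in both treated cultures, within 2-fold. Id2 was at 1682, 2900 and 3319, the order of Ahr, and Gzmb at 2460, 4818 and 3430. Others went the other way or stayed near medium. Foxp3, the regulatory T cell factor gene, was at 997, 629 and 556, and the cytokine gene Il17a, dim on 2 of the arrays, was at 175, 125 and 193. Id2, Gzmb, Foxp3 and Il17a were named after their values were seen. The list was assembled with earlier results of these arrays known, so its direction is no independent evidence.

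NRF2, encoded by Nfe2l2, controls antioxidant genes and shares Nqo1 with the receptor. Of 21 genes in its list 20 were measured and 18 compared, and none was past 2-fold. Hmox1, the heme oxygenase gene, was at 434, 602 and 583 and Nqo2, a second quinone reductase gene, at 294, 401 and 367. The sulfiredoxin gene Srxn1 (212, 264 and 269) and the glutathione transferase gene Gstm1 (244, 283 and 344) were also somewhat higher in the treated cultures. Not all of the list was higher: 5 of 18 genes were below 0 with IL-21 and 8 of 18 with IL-6/TGFb1. Over all compared genes 3149 and 4025 of 11003 were below 0. The list median was 0.09 with IL-21 and 0.02 with IL-6/TGFb1, beside 0.04 and 0.02 for all compared genes.

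Ligands of the receptor can arise from tryptophan, and the list of genes for its breakdown and transport had 17 members, 16 measured and 8 compared, with none past 2-fold. Ido1, Ido2 and Tdo2, genes of enzymes that open the tryptophan ring, were below the filter on all arrays, at most 84.3, 161 and 38.7. They were named apart from the rule for naming genes, and at such intensities absence is not shown. The amino acid transporter gene Slc36a4 was at 944, 1310 and 1182, the kynurenine formamidase gene Afmid at 533, 675 and 623, Kyat3, a kynurenine aminotransferase gene, at 440, 523 and 485, and Haao, a dioxygenase gene further down the same route, at 205, 192 and 233. The list median was -0.01 with IL-21 and 0.07 with IL-6/TGFb1. A list of 17 genes held relatives of Tiparp in the PARP family, together with Macrod1 and Macrod2, which are not PARP genes. Of the list 16 were measured, all compared and none past 2-fold. Parp12 was at 173, 287 and 199, a log2 difference of 0.73 with IL-21 and 0.20 with IL-6/TGFb1. Parp9 (837, 1065 and 936), Parp3 (1237, 1394 and 1586) and Parp16 (248, 293 and 306) followed. The list median was 0.10 with IL-21 and 0.04 with IL-6/TGFb1, and Tiparp lay above 15 of these 16 genes in the first comparison and above all 16 in the second.

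**Figure D3:**
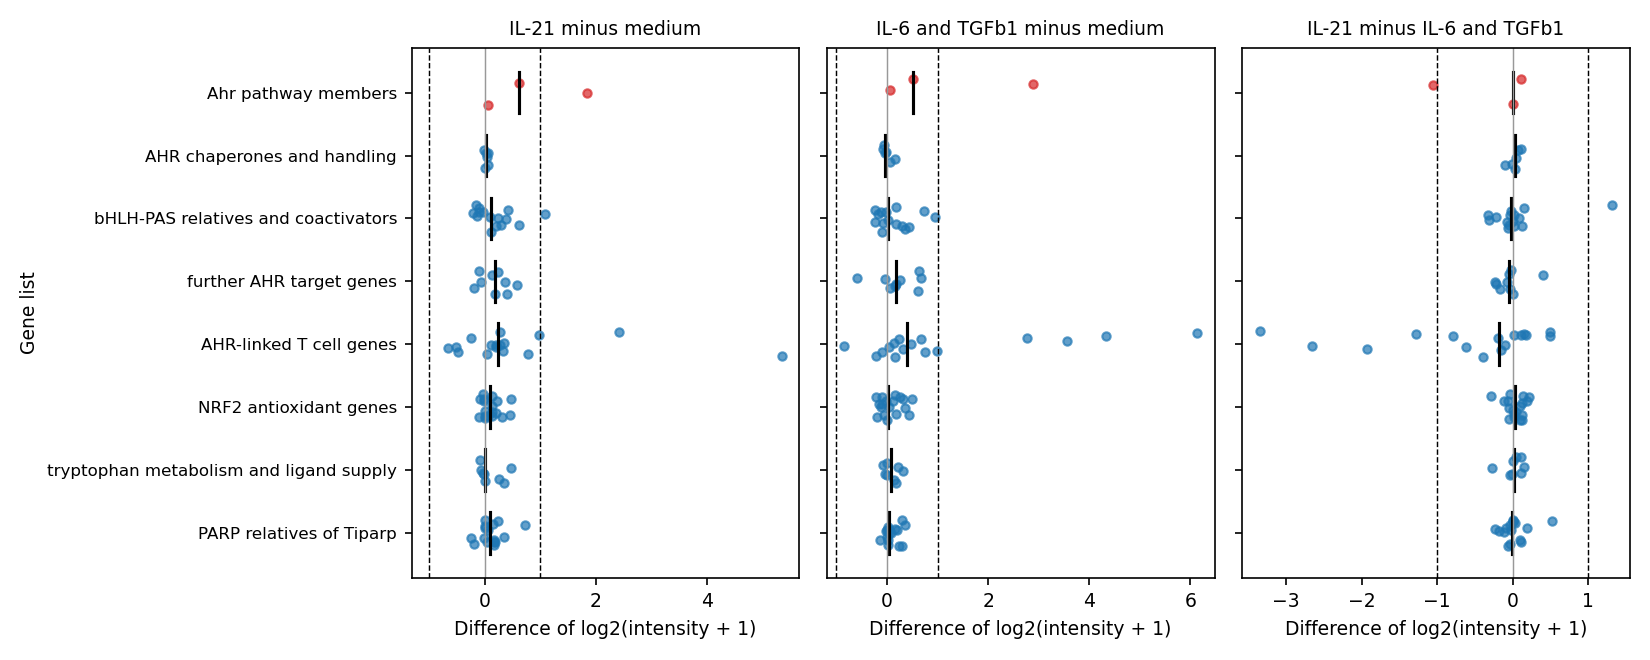
Difference of log2(intensity + 1) of each compared gene (points) by gene list (rows; vertical bars are list medians) in the 3 comparisons, with dashed lines at 2-fold. Ahr and genes of the T cell list stand past the lines, Epas1 does so with IL-21, and the chaperone, NRF2, tryptophan and PARP lists stay within 2-fold.

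The genes most like each pathway gene were those nearest to it in the pair of differences from medium, by Euclidean distance in log2 units over the 3 arrays. For Ahr the nearest of 10459 genes were Gatm (distance 0.49), an enzyme gene of creatine synthesis, Igfbp4 (0.59), an insulin-like growth factor binding protein gene, and the serpin gene Serpinb5 (0.69), followed by the immunoglobulin-like receptor gene Lilr4b (0.91) and the leukotriene receptor gene Cysltr2 (0.94). The medium intensities of Serpinb5 (52.4), Lilr4b (104) and Cysltr2 (59.8) were below 187, so that their distances are poorly measured. No gene lay within 0.25 of Ahr, whereas 272 did for Tiparp and 7158 for Arnt. These counts mainly reflect the size of each gene's differences. Of all compared genes 96.2% lay within 0.5 of no difference with IL-21 and 95.1% with IL-6/TGFb1. Gatm was at 278, 1228 and 1578, so its step between the treated cultures (-0.36) was smaller than that of Ahr (-1.05). Nearest to Tiparp were Ptpn3, a tyrosine phosphatase gene, Tiam1, an exchange factor gene for Rac, and Cibar1, each at a distance of 0.02. Ptpn3 had 12 probe sets, and only its highest-mean probe set was read here. Nearest to Arnt were Trip4, Trmt1l and Anks1, which likewise had equal values in both treated cultures.

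Other cell types express Ahr, and their markers were read beside it. Of the myeloid and dendritic cell list 1 of 15 genes passed the filter, and the summed intensity was 1564 in medium, 1504 under IL-21 and 1528 under IL-6/TGFb1, so that it was lower in both treated cultures than in medium. The B cell list had 1 of 6 passing and sums of 949, 974 and 956, and the CD8 list 1 of 2, with sums of 973, 876 and 772. In the natural killer cell list 0 of 6 passed, but the sum was 578, 626 and 695 in the order of Ahr, largely through Klrd1, which encodes the CD94 receptor, at 66.0, 98.1 and 173. Its part in the Ahr result was not tested. The stromal and epithelial list had 5 of 8 passing and sums of 2060, 1845 and 1931, the erythroid and platelet list 1 of 3 with 423, 395 and 400.4, and the gamma delta T and innate lymphoid list 2 of 2 with 528, 518 and 537. No marker was at 0, since array intensities include background. In these bulk samples, more cells with a transcript and more of it per cell cannot be told apart.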

How the data were processed

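RNA of 3 cultures was hybridized to 1 array each after biotin labelling with the WT terminal kit of Affymetrix, per the labels' protocols. The authors deposited 1 linear intensity for each of 28815 probe sets per array. The submitters' processing notes name mm8 as the genome build, and the way intensities were summarized and normalized is not given in the sources consulted. No further normalization was applied here. Of the probe sets, 21780 had 1 gene symbol in the platform annotation, 1605 several and 5430 none listed, and only the first were used, with the highest-mean probe set per gene. All 7 pathway genes matched RefSeq by Entrez identifier.

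Because the table was linear, log2(intensity + 1) was used. Single arrays per group allow no test, and a difference of at least 1 in size was counted as 2-fold. Genes named from the other 7 lists were those past 2-fold and up to 4 with the largest differences, with all chaperone genes. Nearest genes excluded provisional symbols. The pathway genes, lists and rules were chosen with earlier results of these data known. The calculations, in Python 3.11.15 with numpy 2.4.6 and pandas 2.3.3, were tested on simulated data. The number of arrays limits the precision. The alternatives were another pseudocount or none, raised low values, quantile normalization, median centring, the probe set rule and the brightness filter.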

Additional observations from a re-analysis of the deposited data

How the results depend on the processing

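No paired analysis was possible because each group had 1 array. Leaving out a replicate was not possible for the same reason. Under 9 other settings, Ahr stayed the 1 pathway gene past 2-fold in each of the 3 comparisons. Its difference ran from 1.79 to 1.91 with IL-21, from 2.82 to 2.92 with IL-6/TGFb1, and from -1.09 to -1.01 for IL-21 minus IL-6/TGFb1, the last barely past the 2-fold line. Those ranges come from the pseudocount and normalization settings. Raised low values, the probe set rules and the filters could not change the Ahr value. Ahr has 1 probe set, lay above the raised floor and passed the stricter filter. Tiparp ran from 0.50 to 0.69 with IL-21 and from 0.43 to 0.54 with IL-6/TGFb1. Movements were judged against the 95th percentile gap between probe sets of 1 gene (0.41, 0.37 and 0.35), since no replicate spread exists. With the stricter filter at the 75th percentile, an intensity of 785, fewer genes were compared (5617), and the counts past 2-fold were 35 with IL-21, 69 with IL-6/TGFb1 and 31 between the treated cultures, against 65, 114 and 51. That filter also removes Tiparp, Epas1 and the other genes below it. Settings for Epas1, Arntl and the pathway genes other than Ahr were added after the data were seen. Genes below 187 are limited by signal over background.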

Other observations

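Some listed genes below the brightness filter, chosen after their values were seen, are given as values alone. Gpr15, a homing receptor gene of T cells, was at 89.8 in medium, 90.1 under IL-21 and 154 under IL-6/TGFb1. Il10, which encodes an anti-inflammatory cytokine, was at 90.8, 155 and 146. Cyp1a2, the other P450 gene of the Cyp1a pair, was at 63.7, 58.3 and 64.7.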
